A study of Mus musculus with 139 samples.

Results

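Mir23a, Mir27a and Mir24-2 on mouse chromosome 8, and Mir23b, Mir27b and Mir24-1 on chromosome 13, are the 6 genes of the paired miR-23/27/24 clusters. They were taken by name from a table of 6114 small RNA genes, 2207 of them miRNA genes, and compared over 134 small RNA libraries. The mice were C57BL/6J of WT genotype, adult at 3 months of age, and no treatment is given for any group, so the tissues served as each other's comparison. Brain, kidney, muscle and spleen had 14 libraries each, liver, heart and lung 13, pancreas, bone marrow and intestine 12, and 3 libraries carried the label testis. A replicate number is an animal. Animals 1 to 10 are female and animals 11 to 14 male, per the column names, and all libraries of animals 11 to 14 were in a pool of their own (N541), so sex, animal set and pool cannot be told apart within a tissue.

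The genes of a cluster are transcribed together as a primary transcript, from which Drosha cuts hairpins and Dicer then releases mature miRNAs of about the same length. A mature miRNA guides Argonaute to messenger RNAs chiefly through its seed, bases 2 to 8, so family members with the same seed can pair with the same sites. The miR-23/27/24 clusters are known from endothelial, cardiac and blood cells, miR-27 also from fat and lipid metabolism, and miR-24 from cell cycle control and erythroid differentiation.

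The mature sequences below show which of the 6 genes can be told apart by a read. They come from RefSeq (GRCm38.p6), 5′ to 3′, with the seed in capitals. The miR-23 family is shown by mmu-miR-23a-3p, and mmu-miR-23b-3p is its other member.
mmu-miR-23a-3p: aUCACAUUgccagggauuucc
The miR-27 family has a seed that no other of the 1679 mature miRNAs in that table carried. Counted from the 5′ end, the b form differs from the a form by C19U.
mmu-miR-27a-3p: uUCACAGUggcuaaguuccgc
mmu-miR-27b-3p: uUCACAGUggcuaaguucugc
The miR-24 family has a mature form that is identical in both clusters, and its seed was shared by mmu-miR-5124b, mmu-miR-6369, mmu-miR-6410 and mmu-miR-6413.
mmu-miR-24-3p: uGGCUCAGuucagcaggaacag
The hairpins of Mir24-1 and Mir24-2, with mature miR-24-3p in capitals here, show that only bases outside the mature form separate the 2 genes.
Mir24-2: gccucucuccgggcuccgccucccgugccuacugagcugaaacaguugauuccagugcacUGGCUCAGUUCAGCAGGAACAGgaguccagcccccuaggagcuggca
Mir24-1: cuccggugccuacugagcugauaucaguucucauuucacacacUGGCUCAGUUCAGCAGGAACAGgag

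The chromosome 8 cluster lies on the plus strand of GRCm38 over 404 bases, with Mir23a at chr8:84208518-84208592, Mir27a at chr8:84208672-84208758 and Mir24-2 at chr8:84208815-84208921 (GENCODE M21). Mir23a and Mir27a overlapped no other annotated gene. Mir24-2 shared its last 2 bases with an exon of the lincRNA Gm26532 and lies opposite Mir3074-2. The chromosome 13 cluster lies on the plus strand over 792 bases, with Mir23b at chr13:63300484-63300557, Mir27b at chr13:63300712-63300784 and Mir24-1 at chr13:63301208-63301275. All 3 lie in an intron of Fancc, a DNA repair gene on the other strand, and within 2010111I01Rik on their own strand. Mir23b is intronic there, Mir27b and Mir24-1 fall in an exon of at least 1 transcript, and Mir3074-1 lies opposite Mir24-1.

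How reads that match several genes, and the strand of a read, were handled is not given in the sources used here. Mir24-1 and Mir24-2 are therefore reported side by side and counted as uncertain. Their counts stood in a median ratio of 0.935 (Mir24-1 over Mir24-2, range 0.548 to 1.91), and 116 of 134 libraries had a ratio between 4:5 and 5:4. Opposite them, Mir3074-1 held 2385 counts in all, 0.112% of the Mir24-1 count, and Mir3074-2 held 624 counts, 0.0272% of the Mir24-2 count.

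The median library had 6327550 counts (range 10255 to 34095704), and 8 were below 100000, namely brain 11, liver 5 and pancreas 3, 4, 9, 11, 12 and 13. In 5 intestine libraries of animals 1 to 10 over 50% of counts were tRNA. In 10 tissues the tissue's own marker miRNAs had their highest median in it. In the 3 libraries labelled testis, 14 of 15 X-linked germ cell miRNA genes were at 0 and the list's sum was at most 0.138 CPM (counts scaled to a library total of 1000000), so these libraries are called by their label only. The library labelled Pancreas 11 held 147343 CPM of intestine markers, against 435 to 1971 in the other pancreas libraries, and 2340 CPM of pancreas markers, against 20994 to 111505. Its index number is 33, near intestine 13 and 14 (35 and 36), while pancreas 12 and 13 have 14 and 15. Which tissue it holds was not tested. It is kept under its label in the values below, and the pancreas calls and ratio shifts are also given without it. Whole tissue was sequenced, so fewer cells of a type and less RNA per cell cannot be told apart.

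Levels below are CPM of the library total. The mature forms shown above are 21 or 22 bases long, so counts were not divided by length, and differences in adapter ligation between sequences are not corrected. Mir27b was the most abundant member, with 7793873 counts in all, followed by Mir24-2 with 2293985, Mir24-1 with 2129054, Mir23b with 889036, Mir23a with 686457 and Mir27a with 653489. Mir27b had the highest median of the 6 in each of the 11 tissues and made up a median of 61.2% of their summed counts (11.2 to 97.9% over 134 libraries). That share was 93.6% in pancreas and 33.2% in spleen. The Mir24 genes together made up 49.4% of the 6 in spleen, 14.1% in bone marrow and 4.41% in pancreas. All 6 genes together took a median of 4.14% of the library in pancreas (2.18 to 20.9%), 2.24% in lung, 1.83% in heart, 1.497% in spleen, 1.27% in brain, 0.821% in intestine, 0.712% in kidney and 0.699% in bone marrow.

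The miR-23 genes are given first. Mir23a had a median of 1418 CPM in lung (551 to 1584), 994 in heart (666 to 1469) and 638 in spleen (503 to 1568). Its medians were 519 in muscle (104 to 679), 515 in testis (475 to 567), 461 in bone marrow (212 to 555) and 406 in brain (155 to 1086). Lung and heart libraries thus stood high, and the ranges of lung and spleen overlapped. The lowest medians were 265 in liver (37.7 to 417), 237 in kidney (192 to 460.5), 229.6 in pancreas (0 to 715) and 192 in intestine (22.7 to 353). The 0 is pancreas 13, where 3 counts would be 217 CPM. Mir23b, its counterpart on chromosome 13, had medians of 1195 in lung (839 to 1774), 1173 in brain (322 to 3994), 1115.5 in heart (838 to 1531) and 999.8 in liver (142 to 1787). Medians of 941 in testis (797 to 1198), 702 in kidney (484 to 2034), 666 in spleen (463 to 1753) and 636 in muscle (209 to 839) followed. Liver, among the low tissues for Mir23a, thus had the fourth highest median for Mir23b. Intestine at 615 (110.1 to 1528), pancreas at 499 (218 to 1516) and bone marrow at 369.7 (142 to 515) were lowest.

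Of the miR-27 genes, Mir27a had medians of 1208 in heart (850 to 1685), 929 in lung (557 to 1618), 795 in spleen (377 to 2224) and 726 in pancreas (580.02 to 2102). Medians of 560.4 in bone marrow (153 to 725), 522 in testis (468.5 to 566), 456 in muscle (102 to 1015) and 387 in brain (121 to 1611) followed. Liver at 355 (25.3 to 629), intestine at 324 (74.2 to 659) and kidney at 306 (167 to 886) were lowest. The ranges of most tissues overlapped for Mir27a. Mir27b had a median of 38824 CPM in pancreas (16787 to 204639), where it ranked 2 among all genes by mean level, against ranks of 20 to 51 in the other tissues. Its medians were 12398.5 in heart (8301 to 15519), 12023 in lung (7448 to 17514), 10418 in testis (9206 to 11174), 8939 in brain (2176 to 19824) and 7224 in muscle (1512 to 9094). Pancreas was set apart from this group. Medians of 5987 in liver (784 to 14580), 4622 in intestine (816 to 8368), 4302 in spleen (2382 to 10980), 4132 in bone marrow (1587 to 5719) and 2331 in kidney (1839 to 9640.4) were lowest.

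The Mir24 genes ran together. Mir24-2 had medians of 3917 in spleen (2157 to 13578), 3479 in lung (1848 to 5861), 2089 in heart (1187 to 3670.5) and 1919 in kidney (981 to 3353). Medians of 1840.4 in liver (291 to 5202), 1572 in brain (973 to 12557), 1349.95 in testis (1312 to 1983) and 842 in pancreas (347 to 3706) followed. Muscle at 645 (356 to 977), intestine at 637 (48.6 to 2741) and bone marrow at 541.4 (218 to 899) were lowest. Mir24-1 took the same course, from 3759 in spleen (2039 to 13223), 3007 in lung (1646 to 5685), 1896 in kidney (931 to 3104) and 1760.5 in liver (273 to 4681). It was at 1726 in heart (988 to 3177), 1527 in brain (873 to 12267), 1196 in testis (1182 to 1852) and 824 in pancreas (460.02 to 3706). It ended at 601 in intestine (47.3 to 2623), 536 in muscle (328 to 839.96) and 415 in bone marrow (158 to 797). With each gene's tissues ordered by the mean of log2(CPM + 1), only 3 pairs of neighbours differed by more than the larger of their SDs. These were Mir23a between bone marrow and kidney, Mir24-1 between pancreas and muscle, and Mir27b between pancreas and heart, where the difference was 2.01 and the larger SD 1.21. All other neighbours lay within that spread.

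**Figure D1:**
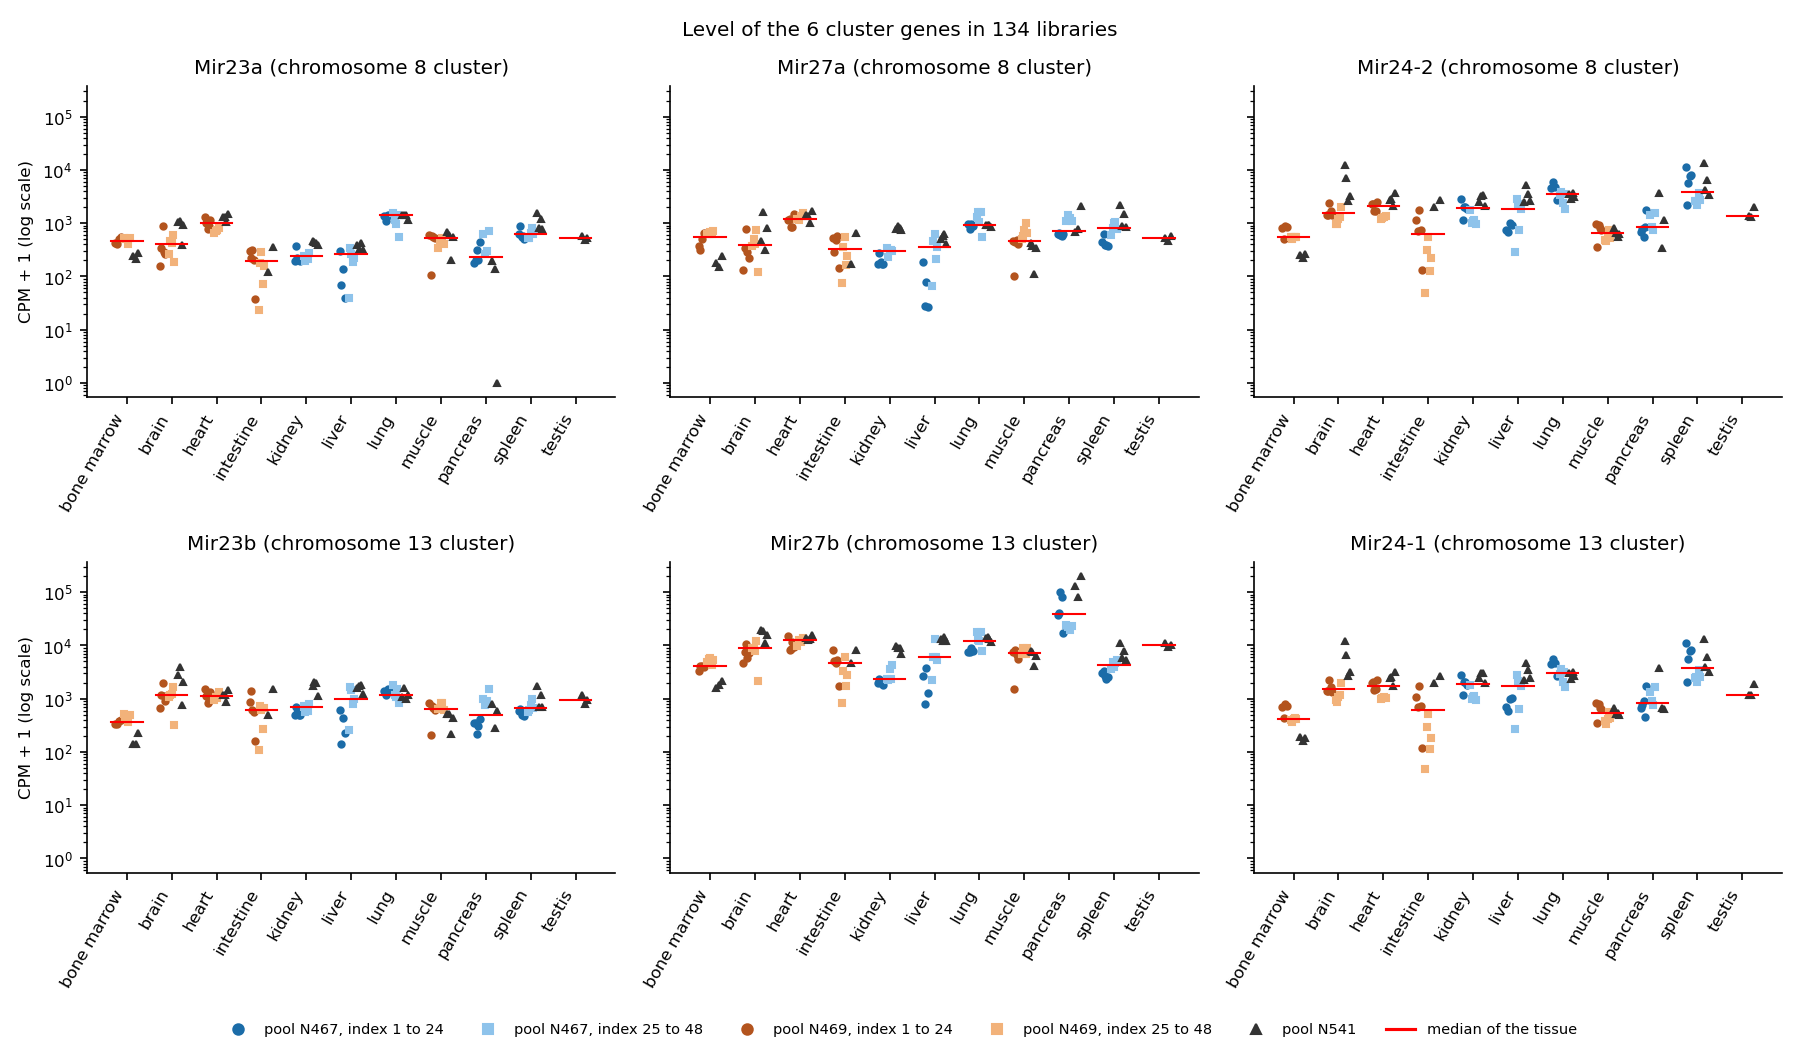
Level of each of the 6 genes in every library, as CPM on a log axis, by tissue; points are libraries and bars are medians. The Mir27b points of pancreas (16787 to 204639) lie at the top, and the Mir24-1 and Mir24-2 panels have the same shape.

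The next question was in which tissues a gene stood above or below the rest. Each tissue was set against the mean of the other 10 with edgeR's quasi-likelihood test after TMM scaling, in a model of tissue and library pool, over 1268 genes that passed a filter on low counts. All 6 members passed it. A pair was called where the log2 difference was at least 1 in size and its p, adjusted by the Benjamini-Hochberg method, was under 0.05. Of the 66 pairs of gene and tissue, 12 were called higher and 10 lower, where 36.2% of all gene and tissue pairs were called in either direction. The share of calls among the 6 genes was thus near the background. Mir24-1 and Mir24-2 had the same call in each of the 11 tissues and a Pearson r of 0.991 over 134 libraries. With their shared mature form they may be a single measure, so the counts of calls here and by tissue below are not over 6 separate measures. The calls fell into 7 tissues. None was made in intestine, where 34.7% of all genes were called higher and 10% lower, in liver (11.2 and 21.0%), in muscle (19.2 and 10.7%) or in testis (14.2 and 6.86%). No member was called higher in bone marrow or brain, where 28.9 and 36.7% of genes were, or lower in heart, kidney or lung, where 17.6, 19.2 and 14.2% were. All 22 called pairs kept their direction under 4 scalings (TMM, DESeq2 size factors, unscaled totals and miRNA genes alone), as did 43 of the 66 pairs in all. The scaling moved the median of all genes by more than 0.1, for example from 0.27 to 0.94 in bone marrow and from −0.32 to −0.72 in kidney with DESeq2 size factors, and from −0.32 to −1.16 in kidney with unscaled totals.

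**Figure D2:**
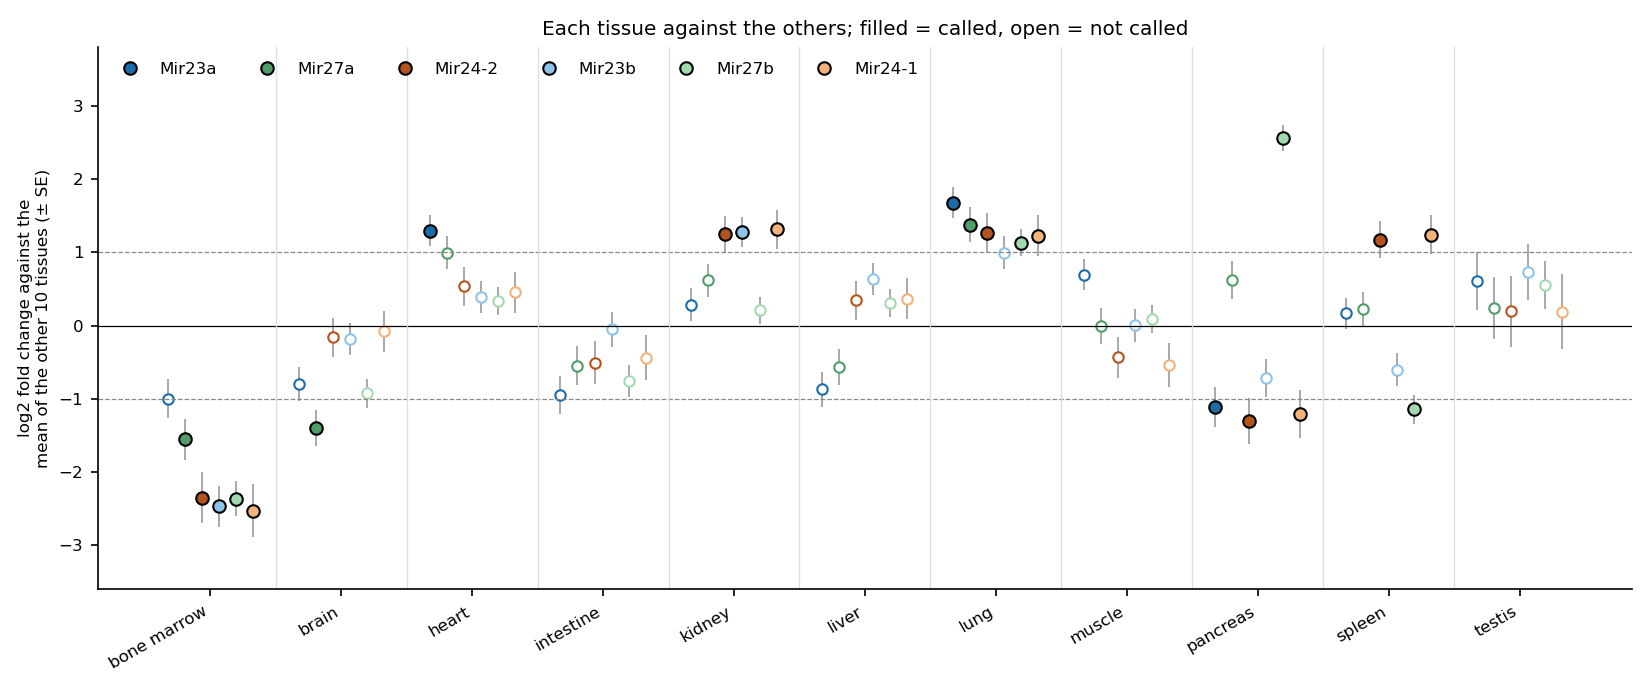
Log2 difference of each tissue from the mean of the other 10 tissues for the 6 genes, with its standard error; filled points are called and open points are not. The largest differences are Mir27b in pancreas (2.56) above 0 and Mir24-1 in bone marrow (−2.52) below it.

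In pancreas, Mir27b was high and its own cluster partners were not. The lowest pancreas library held 16787 CPM, the median was 38824 and the highest 204639, against a median of 6853 over the other 122 libraries. Only 4 of those 122 exceeded the lowest pancreas library, namely brain 11 at 19824, brain 12 at 18421, lung 8 at 17514 and lung 5 at 17513. Their totals were 17201, 251347, 11860518 and 12445057 counts. Of the 12 pancreas libraries, 11 exceeded all 122. The library labelled Pancreas 11 was among these, at 132033 CPM, where intestine libraries held at most 8368 CPM. Mir27b was 2.56 ± 0.18 (log2 difference ± SE) above the mean of the other tissues, with an adjusted p of 2.69e-27 (edgeR), where 11.3% of all genes were called higher. It was the only pair of the 66 in which a member exceeded each of the other 10 tissues by at least 1, at 1.30 above lung with an adjusted p of 0.00244, where 2.57% of all pairs met that rule. The rule was not met with no pool term, with no filter on low counts, with miRNA genes alone, without the libraries under 100000 counts, in animals 1 to 10 alone or with any testis library left out. The difference was 2.45 without the library labelled Pancreas 11 and 1.87 without the 8 libraries under 100000 counts, and remained called in all 17 alternatives (1.87 to 3.74).

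The pancreas libraries were shallow, so each share is given with its counting error (Wilson 95% interval, which covers counting error only). The deepest, pancreas 5, had 16194 Mir27b counts of 964665, or 1.68% (1.65 to 1.70%). Pancreas 7 and pancreas 8 stood near it, with 14402 of 645687 (2.23%) and 12425 of 624104 (1.99%). Pancreas 1 and 2 had 5071 of 134227, or 3.78% (3.68 to 3.88%), and 5765 of 144599, or 3.99% (3.89 to 4.09%). The intervals of these last 2 libraries nearly touch, while that of pancreas 5 lies well below both. Pancreas 6 had 3456 of 141115 (2.45%) and pancreas 9 had 1088 of 46168 (2.36%). Pancreas 3 had 3291 of 32054, or 10.3% (9.94 to 10.6%), pancreas 4 had 4085 of 49998, or 8.17% (7.93 to 8.41%), and pancreas 12 had 5417 of 66250, or 8.18%. The smallest libraries held the largest shares, and they include the library whose markers went against its label. The library labelled Pancreas 11 had 1354 of 10255, or 13.2% (12.6 to 13.9%), and pancreas 13 had 2823 of 13795, or 20.5% (19.8 to 21.1%).

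Across the 12 pancreas libraries, the log2 level of Mir27b fell with the log10 of the library total, with a Pearson r of −0.870 (permutation p = 0.00028, adjusted 0.00168 over the 6 genes) and a Spearman rho of −0.853 (permutation p = 0.00084, adjusted 0.00504), both two-sided. Without the 2 libraries farthest from the median depth r was −0.819, and without the library labelled Pancreas 11 it was −0.846. The other 5 genes had r between −0.20 and 0.45, and none passed (adjusted permutation p 0.451 to 0.964). The libraries came from 3 batches by pool and index number, each of under 6 libraries, so no r within a batch is given. In pool N467, the 5 libraries with index 1 to 24 ranged from 16787 to 102670 CPM, and the 4 with index 25 to 48 from 19908.5 to 24491 CPM over totals of 46168 to 645687. The 3 of pool N541 ranged from 81766 to 204639 CPM over totals of 10255 to 66250. In the first of these batches the level was 102670 CPM in the library with the smallest total (32054 counts). It was 16787 CPM in the library with the largest total (964665 counts). In the second batch the level moved little over its range of depth. The split by index was chosen after the data were seen, and the part of depth in the level was not tested.

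**Figure D3:**
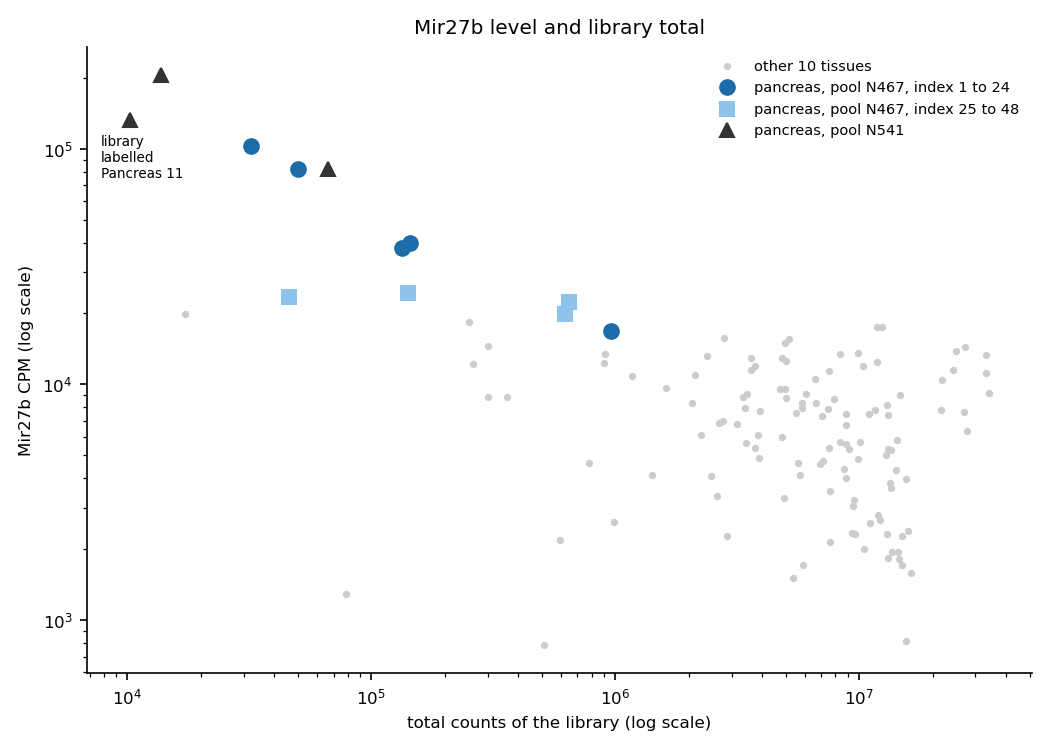
Mir27b level in the 12 pancreas libraries (CPM, log axis) against library total (counts, log axis), by pool and index range. Levels fall from 204639 CPM in a library of 13795 counts to 16787 CPM in a library of 964665 counts, and the 4 libraries of pool N467 with index 25 to 48 stay between 19908.5 and 24491.

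Of the other members in pancreas, 3 were called lower. Mir24-2 was −1.30 ± 0.32 (adjusted p = 0.00043, edgeR) below the other tissues, Mir24-1 −1.21 ± 0.33 (0.00173) and Mir23a −1.11 ± 0.27 (0.000468), where 22.0% of all genes were called lower. The median of all genes was itself −0.95 in pancreas, and that of the 6 members −0.92. With DESeq2 size factors the 3 were −0.62, −0.55 and −0.61, and with unscaled totals −0.53, −0.45 and −0.45, none of them a call. Without the library labelled Pancreas 11 they were −1.46, −1.38 and −1.08, all called. Mir27a was 0.62 (adjusted p = 0.0455) and not called, but was 1.25 and called higher with DESeq2 size factors (adjusted p = 1.14e-06), with unscaled totals (0.000103) and with the DESeq2 Wald test (1.11e-07). Mir23b was −0.72 and not called. Mir23a was also not called without the libraries under 100000 counts (−0.72) or without the testis libraries (−0.83), and its value ranged from −3.01 to −0.45 over the alternatives. The endothelial and angiogenic list (among them Mir126a, Mir10a and Mir221) had 0 of 9 tested genes higher and 7 lower there (median −1.80), and the blood cell list 0 of 8 higher and 6 lower (median −1.78). The sum of the endothelial list was 39354 to 100831 CPM in pancreas, with means of 48582 CPM for Mir10b, 15501 for Mir10a and 1956 for Mir126a. The part of these cell types in the levels of the members was not tested.

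In lung, 5 of the 6 genes were called higher, where 17.4% of all genes were. Mir23a was 1.68 ± 0.21 above the other tissues (adjusted p = 3.42e-11, edgeR), Mir27a 1.38 ± 0.24 (5.1e-07) and Mir24-2 1.27 ± 0.27 (4.24e-05). Mir24-1 was 1.23 ± 0.28 (0.000185) and Mir27b 1.13 ± 0.19 (2.59e-07), and the median of the 6 was 1.246 against −0.21 for all genes. The lung libraries were high for all 5 genes but overlapped with heart and spleen, as for Mir23a, where lung 9 was lowest at 551 CPM. Only the Mir23a call held under all 17 alternatives (1.17 to 2.36). With DESeq2 size factors Mir27a was 0.90, Mir24-2 0.72, Mir24-1 0.68 and Mir27b 0.53, and in pool N541 alone they were 0.63, 0.86, 0.77 and 0.40, below the fold needed for a call. Without testis 11 or testis 12 the lung difference rose, for Mir24-2 to 1.92 and 1.93.

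The smooth muscle and stromal list was mostly higher in lung, and the endothelial and angiogenic list was mixed. Of the endothelial and angiogenic list, 5 of 9 tested genes were higher and 2 lower (median 1.09), and of the smooth muscle and stromal list 6 of 9 were higher and none lower (median 1.10). Mir126a, the endothelial miRNA, had a mean of 19615 CPM in lung and a difference of 2.20 (adjusted p = 1.26e-10), and Mir143, a smooth muscle miRNA, a mean of 77675 CPM and 1.78. The sum of the endothelial and angiogenic list was 100290 to 301616 CPM in lung and 12077 to 685514 CPM elsewhere, with kidney highest. Mir10a and Mir10b of the list are also kidney markers. Mir10a alone had a mean of 165676 CPM in lung, so the sum is not a measure of vessels alone. No gene of either list was at 0 in all lung libraries. The part of these cell types in the lung levels was not tested.

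In heart, Mir23a was the only call, at 1.29 ± 0.21 (adjusted p = 1.43e-07, edgeR), where 12.1% of all genes were called higher, and it held under all 17 alternatives (1.04 to 1.75). Its 13 heart libraries ran from 666 to 1469 CPM with a median of 994, and overlapped with spleen and lung. The median of the 6 genes was 0.49 in heart, against −0.40 for all genes. The endothelial list had 1 gene higher and 1 lower of 9, the stromal list 4 and 1 of 9, and the blood cell list 4 and 0 of 8. In brain, Mir27a was called lower at −1.40 ± 0.25 (adjusted p = 2.96e-07), where 22.6% of genes were called lower, with brain libraries between 121 and 1611 CPM around a median of 387. It was −0.54 with unscaled totals, no longer a call. The other 5 genes were not called in brain. With miRNA genes alone all 6 were called lower there, from −2.41 for Mir27a to −1.11 for Mir24-1.

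Bone marrow had the most genes below the rest. There, 5 of the 6 genes were called lower, where 18.6% of all genes were, and the median of the 6 was −2.35 against 0.27 for all genes. Mir24-1 was −2.52 ± 0.36 (adjusted p = 1.11e-09, edgeR), Mir23b −2.46 ± 0.28 (7.32e-14), Mir27b −2.36 ± 0.24 (1.92e-16) and Mir24-2 −2.35 ± 0.34 (1.78e-09). These 4 calls held under all 17 alternatives, between −3.91 and −1.38. Mir27a was −1.55 ± 0.28 (8.8e-07), and was not called with DESeq2 size factors (−0.93), unscaled totals (−0.65), miRNA genes alone (−0.79) or animals 1 to 10 alone (−0.86). Mir23a missed the fold threshold at −0.996 ± 0.26 (adjusted p = 0.000553). In CPM of the library total the gap is smaller, and the bone marrow libraries overlapped with those of other tissues for every member. The Mir23b range of 142 to 515 CPM, for example, overlaps with that of spleen.

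Stromal markers were also low in bone marrow, blood markers were high, and the endothelial and angiogenic list was mixed. The endothelial list had 1 of 9 genes higher and 4 lower (median −0.91), with Mir126a at −1.18. Its sum had a median of 128470 CPM. That is above the medians of brain, heart, liver and pancreas and below those of the other tissues. The stromal list had none higher and 7 of 9 lower (median −1.73), with Mir143 at −2.81, and its sum was 6554 to 37580 CPM, against 51144 to 160553 in lung. The blood cell list had 6 of 8 higher and none lower (median 2.47), with Mir142, a miRNA of blood cells, at 3.12 and Mir486, an erythroid miRNA, at 2.31. The part of these cell types in the low levels was not tested.

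Spleen, the other blood-forming and lymphoid tissue of the set, had another profile. Mir24-1 was called higher at 1.24 ± 0.26 (adjusted p = 3.07e-05, edgeR) and Mir24-2 at 1.17 ± 0.25 (3.9e-05), where 20.4% of all genes were. Mir27b was called lower at −1.14 ± 0.20 (5.47e-07), where 14.4% were. Spleen thus held the highest Mir24 medians and one of the lowest Mir27b medians. The Mir24 calls did not hold in animals 1 to 10 alone (0.82 for Mir24-2 and 0.90 for Mir24-1), and Mir24-2 was 0.97 without the libraries under 100000 counts. Mir27b was −0.48 with unscaled totals and −0.94 in pool N541 alone. The blood cell list had 7 of 8 genes higher and none lower (median 2.73), with Mir142 at 4.07, the endothelial list 1 higher and 1 lower of 9, and the stromal list 3 and 1 of 9. Their part in the members' levels was not tested.

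In kidney, 3 genes were called higher, where 14.3% of all genes were. Mir24-1 was 1.31 ± 0.27 (adjusted p = 2.21e-05, edgeR), Mir23b 1.28 ± 0.20 (7.09e-08) and Mir24-2 1.24 ± 0.26 (2.62e-05). In CPM of the total, Mir23b was not high in kidney, with a median of 702 CPM. The medians of Mir24-1 (1896) and Mir24-2 (1919) were below only those of spleen, lung and, for Mir24-2, heart. With unscaled totals the differences were 0.27 for Mir24-1, 0.31 for Mir23b and 0.20 for Mir24-2, none a call. With DESeq2 size factors Mir24-1 was 0.94 and Mir24-2 0.87. Mir10a and Mir10b had means of 292181 and 323937 CPM in kidney, so they took most of the counts of the average kidney library. The endothelial list had 5 of 9 genes higher and none lower (median 1.15), Mir10a and Mir10b among them, and the stromal list 4 of 9 higher and none lower (median 0.96). Their part in the kidney values was not tested.

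The balance between the clusters was then read as a ratio of counts within each library, which does not depend on the library's scaling. Each tissue's mean log2 ratio (pseudocount 0.5, at least 20 counts in the ratio's genes) was set against all other libraries in two-sided permutation tests of 100000 resamples, exact for testis, with p-values adjusted over 55 tests (5 ratios in 11 tissues). The Mir23b to Mir23a ratio compares the miR-23 genes of chromosomes 13 and 8. It was shifted in 8 of 11 tissues. The ratio of geometric means was 4.14 in liver, 3.60 in intestine, 2.94 in kidney and 2.89 in brain, and 0.8002 in bone marrow, 0.986 in spleen, 1.03 in lung and 1.14 in heart. The chromosome 13 copy thus led in liver, intestine, kidney and brain, and the copies were near parity in bone marrow, spleen, lung and heart. In liver the 13 libraries had log2 ratios of 1.05 to 2.80 with a median of 2.11, above every bone marrow (−0.74 to −0.01), spleen (−0.44 to 0.27), lung (−0.51 to 0.61) and heart (−0.28 to 0.76) library. The log2 difference from the other libraries was 1.37 in liver (adjusted permutation p = 0.000137), 1.13 in intestine (0.000236), 0.82 in kidney (0.00406) and 0.80 in brain (0.00491). It was −1.26 in bone marrow (0.00022), −0.94 in spleen (0.000794), −0.86 in lung (0.00406) and −0.70 in heart (0.0235). Muscle (−0.48, adjusted p = 0.118), pancreas (0.10, 0.828, 9 libraries by the permutation test) and testis (0.08) did not pass.

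Batches were checked by repeating the comparison within pool N467 or N469 with index 1 to 24, the same pool with index 25 to 48, and pool N541. The sign of the Mir23b to Mir23a shift was the same in each batch for all 8 tissues. Liver was 1.12, 1.60 and 1.63, passing in each. Spleen was −1.06, −1.16 and −0.86, lung −0.72, −1.11 and −0.98, bone marrow −1.39, −1.36 and −1.34, and intestine 1.18, 1.204 and 1.46. These were of similar size in the 3 batches, although not all passed in batches of so few libraries. Kidney was 0.78, 0.56 and 1.42, passing in the last, and brain 1.22, 0.67 and 0.73, passing in the first. Heart was −0.82, −0.41 and −0.93 and passed in none.

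The Mir27b to Mir27a ratio, the same comparison for miR-27, was above 1 in every tissue. Pancreas was highest with a ratio of 53.2 (log2 values 3.96 to 7.497) and spleen lowest with 5.80 (1.96 to 2.79), and these ranges did not overlap. Pancreas differed from the other libraries by 2.11 (adjusted permutation p = 0.000137), liver by 0.90 (0.0101) and brain by 0.70 (0.0330), and spleen by −1.42 (0.000236) and bone marrow by −0.76 (0.0323). The pancreas difference was 1.95 without the library labelled Pancreas 11 and 1.25 without the libraries under 100000 counts, and passed in both. With animals as a block, 8 tissues passed in place of these 5. Liver and brain were thus shifted to chromosome 13, and spleen and bone marrow to chromosome 8, for both families. Within batches pancreas was 2.74, 0.83 and 3.08, and the second value did not pass (adjusted permutation p = 0.200). Spleen was −1.78, −1.42 and −1.74, and the first did not pass (0.0512). Brain was 1.04, 0.97 and 0.53, and the last did not pass (0.588). Liver was 0.99, 1.09 and 0.62, and bone marrow −0.69, −0.63 and −0.84, and in both only the second passed. The sign was the same in each batch for all 5 tissues. The a and b forms differ at base 19 only, and how reads without that base were assigned is not known.

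The families also differed from each other in balance. The Mir27 to Mir23 ratio sums both clusters. It was 59.3 in pancreas, 3.52 (log2) above the other libraries (adjusted permutation p = 0.000137), and passed in each batch with 4.63, 1.79 and 5.13. Without the library labelled Pancreas 11 the difference was 3.42, which also passed, and the shift passed without the libraries under 100000 counts. Its size differed with depth. The log2 ratio was 4.34, 4.54 and 4.11 in the deepest libraries, pancreas 5, 7 and 8. In pancreas 3, 4, 11, 12 and 13, all under 100000 counts, it was 7.02 to 8.39, but in pancreas 9, also under 100000, it was 3.46. The part of depth was not tested. Pancreas libraries lay between 3.46 and 8.39 on the log2 scale and no other tissue's library exceeded 3.31, so the groups did not overlap. Kidney (−0.98, adjusted p = 0.0235) and spleen (−0.97, 0.0242) were low, but passed in no batch by the permutation test (−1.51, −0.89 and −0.87 in kidney, −1.56, −0.70 and −0.99 in spleen). The Mir24 to Mir23 ratio was 6.22 in spleen, 1.63 (log2) above the other libraries (0.000137), and passed in each batch with 1.53, 0.87 and 1.23. The spleen libraries ran from 1.47 to 4.23 and overlapped with several tissues. The ratio was lower in bone marrow (−0.997, 0.0036), muscle (−1.05, 0.000825) and intestine (−0.76, 0.0277). Within batches these were −0.08, −0.09 and −1.46 in bone marrow, where only the last passed. In muscle they were −0.40, −0.40 and −0.998, where none passed. In intestine they were −0.04, −0.71 and 0.77, where none passed and the sign turned. The last of each set is pool N541, where the tissues compared with are others than in the first batches.

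**Figure D4:**
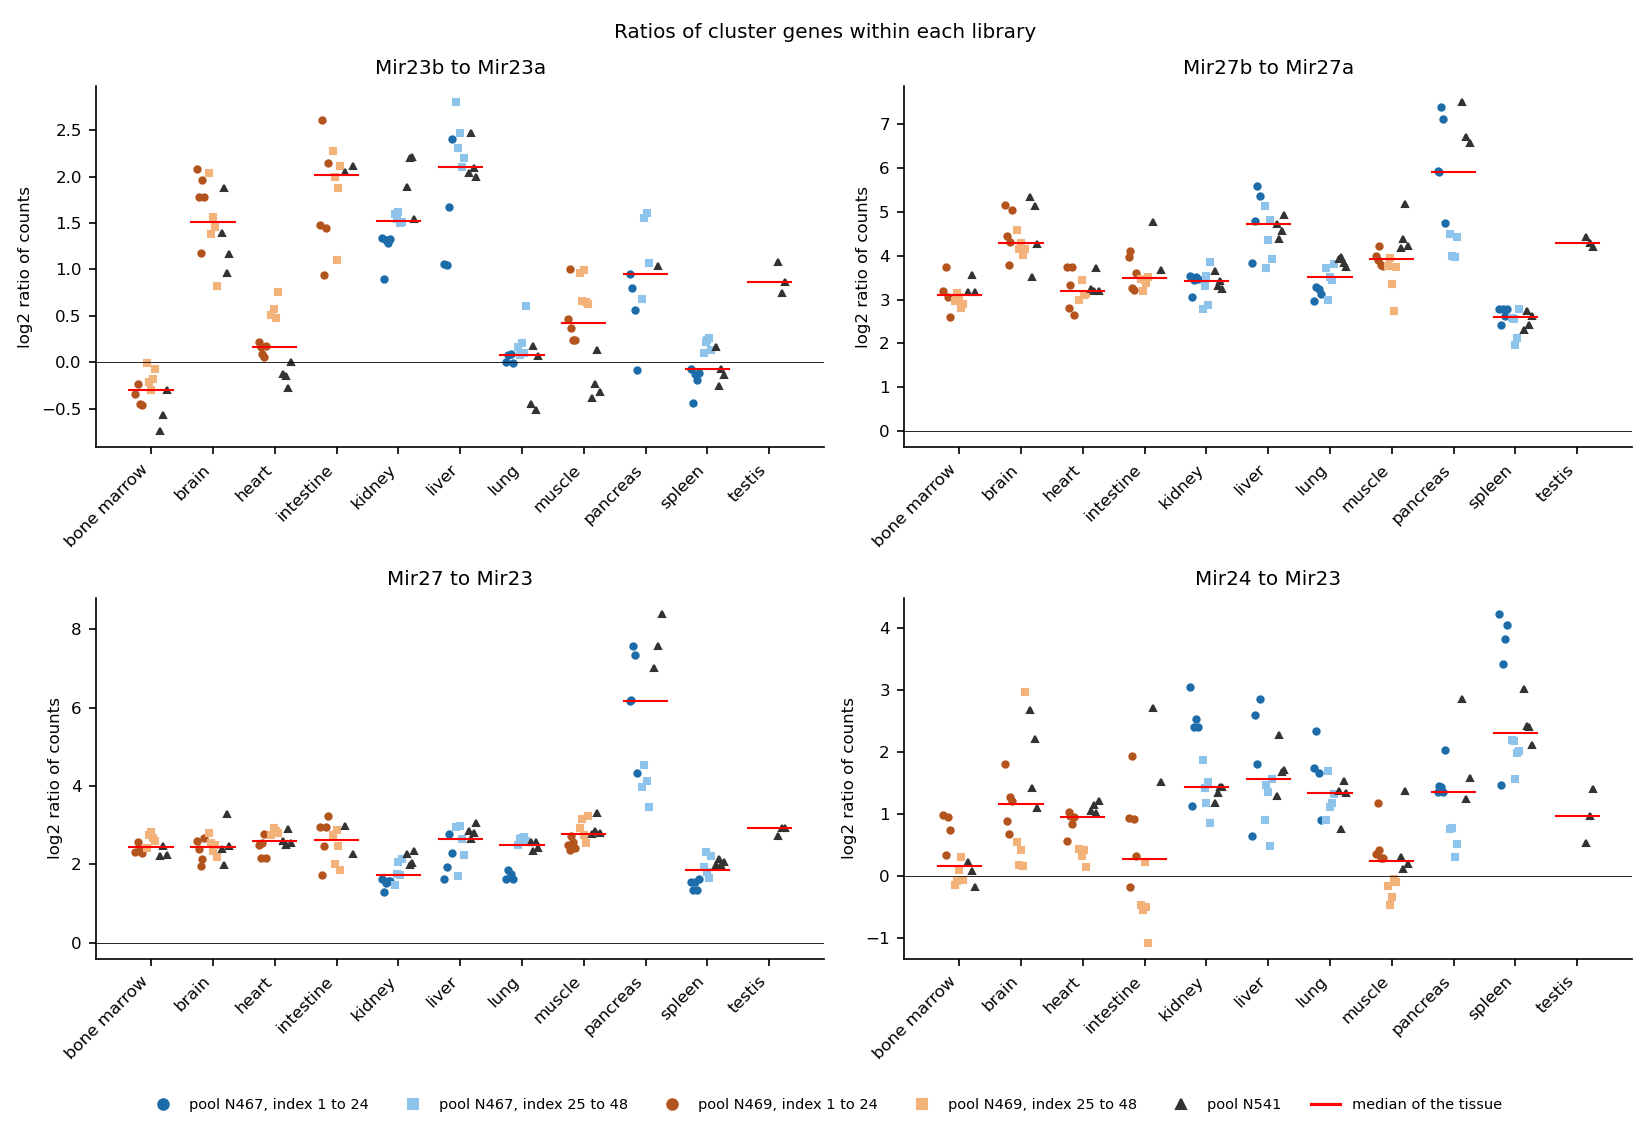
Log2 ratios of counts within each library by tissue, coloured by pool and index range, for Mir23b to Mir23a, Mir27b to Mir27a, Mir27 to Mir23 and Mir24 to Mir23. Liver, intestine, kidney and brain sit highest in the first panel, pancreas in the panels of Mir27b to Mir27a and Mir27 to Mir23, and spleen in the last; in the last panel the libraries with index 1 to 24 tend to lie above those with index 25 to 48.

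The Mir24-1 to Mir24-2 ratio moved least, with shifts of −0.25 in bone marrow (adjusted permutation p = 0.000275) and −0.16 in muscle (0.0235), and with animals as a block 6 tissues passed. Within batches these were −0.08, −0.19 and −0.35 in bone marrow and −0.07, −0.14 and −0.11 in muscle, and only the second bone marrow value passed. Since both genes give the same mature form, this ratio can also reflect how shared reads were divided, which was not tested.

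The index ranges of a pool were compared within each tissue of animals 1 to 10, a split chosen after the data were seen. Of 50 two-sided exact permutation tests, 10 passed after adjustment. The Mir24 to Mir23 ratio was lower with index 25 to 48 in 10 of 10 tissues, passing in 3, and Mir23b to Mir23a was higher in 9 of 10, passing in 3. Mir27 to Mir23 was higher in 8 of 10, passing in 2. In lung its log2 values were 1.62 to 1.85 with index 1 to 24 and 2.49 to 2.70 with index 25 to 48, without overlap (adjusted exact permutation p = 0.0397). Spleen Mir24 to Mir23 was 1.47 to 4.23 against 1.56 to 2.20, which overlapped and did not pass. With the index range in place of the pool in the tissue model, 13 pairs were called higher and 10 lower. The index ranges also held different animals. Index 1 to 24 held animals from 1 to 5 and index 25 to 48 animals from 6 to 10. In bone marrow and lung these were animals 1 to 4 and 5 to 9. Index range and animals thus cannot be told apart, and the 10 tissues largely share the same animals, so they are not independent. What else the index ranges stand for is not given in the sources used here.

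Animals 11 to 14 were compared with animals 1 to 10, tissue by tissue in 10 tissues, over 1029 genes tested in each. All 15 calls among the 60 pairs of gene and tissue were higher in animals 11 to 14, where 8.38% of all gene and tissue pairs were called higher and 16.1% lower. With unscaled totals there were 18 higher and 6 lower, 5 of the lower in bone marrow, and with miRNA genes alone 5 higher and 1 lower. Averaged over tissues, the difference was 0.89 for Mir27b (adjusted p = 6.76e-12, edgeR), 0.74 for Mir24-2 (1.94e-05), 0.70 for Mir24-1 (0.000115) and 0.50 for Mir27a (0.000892). It was 0.42 for Mir23b (0.00295) and 0.40 for Mir23a (0.00575). All 6 averages passed the adjusted p of 0.05, where 8.36% of all genes passed in that direction, and all were below a log2 difference of 1. These p-values take the libraries of an animal as independent, although the set is a property of the animal, so they can be too small. Only the pancreas call for Mir27b held in each alternative in which it could be tested.

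Calls were made in kidney, pancreas, intestine, spleen and liver. In kidney Mir27b was at 6890, 8855 and 9640 CPM (lowest, median and highest of 4 libraries) in animals 11 to 14 and at 1839, 2301 and 4345 in 10 libraries of animals 1 to 10. Mir23b was at 1128, 1833 and 2034 against 484, 577 and 781, and Mir27a at 732, 797 and 886 against 167, 253 and 338. None of these groups overlapped. Nor did the kidney library totals, at 301536 to 2663695 counts in animals 11 to 14 and 9393931 to 14943881 in animals 1 to 10. The part of depth in the kidney differences was not tested. The log2 differences were 1.71 for Mir27b (adjusted p = 9.06e-06, edgeR), 1.42 for Mir23b (0.000941) and 1.64 for Mir27a (0.000348), where 5.15% of genes were called higher, and with miRNA genes alone they were 0.96, 0.61 and 0.88. Pancreas Mir27b was at 81766, 132033 and 204639 CPM against 16787, 24491 and 102670, which overlapped. The difference was 2.10 (adjusted p = 1.51e-06), where 6.03% of genes were called higher, and 1.77 without the library labelled Pancreas 11. The depth of the pancreas libraries moved with the set, as given above, and its part was not tested.

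In intestine, animals 13 and 14 had Mir24-2 at 2041 and 2741 CPM, against a lowest of 48.6, a median of 434 and a highest of 1781 in animals 1 to 10, without overlap. The difference was 2.28 for Mir24-2 (adjusted p = 0.000737, edgeR) and 2.30 for Mir24-1 (0.00109), where 4.28% of genes were called higher. The 5 libraries of animals 1 to 10 with 52.2 to 92.7% of counts on tRNA had Mir24-2 at 48.6 to 316 CPM, and the other 5, with 5.46 to 43.4% tRNA, at 553 to 1781 CPM. Animals 13 and 14 had 9.05 and 22.3% tRNA, so the tRNA share moved with the set, and its part in the difference was not tested.

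In spleen all 6 genes were called higher in animals 11 to 14, where 16.3% of genes were. Mir27b was at 5298, 6883 and 10980 CPM against 2382, 3413 and 5271, the only one of the 6 without overlap. The log2 differences were 1.78 for Mir27a, 1.77 for Mir27b, 1.55 for Mir23a, 1.47 for Mir23b, 1.18 for Mir24-2 and 1.15 for Mir24-1, with adjusted p between 5.99e-06 and 0.048. The 6 genes thus moved by similar amounts, but the size depended on scaling. With DESeq2 size factors they were between 0.10 and 0.74 and none was called. The median of all spleen genes was 0.00 after TMM scaling and −0.90 with DESeq2 size factors. Without animal 11, Mir24-2 was 0.50 and Mir24-1 0.45, and without the library labelled Pancreas 11 the calls of Mir24-2 (1.04, adjusted p = 0.0667) and Mir24-1 (1.01, 0.0908) were lost.

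In liver, 3 genes were called higher, where 4.28% of genes were. Mir27b was at 12169, 12900 and 14580 CPM against 784, 3829 and 12970, which overlapped, and differed by 1.30 (adjusted p = 0.00188, edgeR). Mir24-2 differed by 1.21 (0.0478) and Mir27a by 1.15 (0.0276), and these calls held in 3 of 11 alternatives each. Bone marrow, brain, heart, lung and muscle had no call, where 18.1, 3.60, 4.47, 12.1 and 9.52% of genes were called higher and 11.2, 28.8, 10.6, 12.3 and 10.4% lower. No member was called lower in intestine, kidney, liver, pancreas or spleen, where 27.2, 23.0, 15.7, 6.51 and 15.4% of genes were. In CPM of the library total all 6 genes were lower in the 3 bone marrow libraries of animals 11 to 14 than in the 9 of animals 1 to 10, without overlap. Mir27b was at 1587, 1815 and 2140 CPM against a lowest of 3359, a median of 4382 and a highest of 5719, and Mir27a at 153, 175 and 237 against 307, 626 and 725. After TMM scaling the differences there were −0.51 to 0.18, while with unscaled totals they were −1.60 to −0.995, and 5 were called lower. In brain Mir24-2 (2658 to 12557 against 973 to 2411 CPM) and Mir24-1 (2689 to 12267 against 873 to 2222) were higher in animals 11 to 14 without overlap, although not called. The median difference of the 6 genes was above that of all genes in 9 of the 10 tissues, as in kidney (1.13 against −1.09) and intestine (0.83 against −1.52), and below it in bone marrow (−0.21 against 0.09). The size of the difference depended on the tissue for Mir27b (interaction over 10 tissues, adjusted p = 0.000105), Mir27a (0.00219), Mir23b (0.00455) and Mir23a (0.0219), where 53.4% of all genes passed that test, and it did not pass for Mir24-2 (0.134) or Mir24-1 (0.132).

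**Figure D5:**
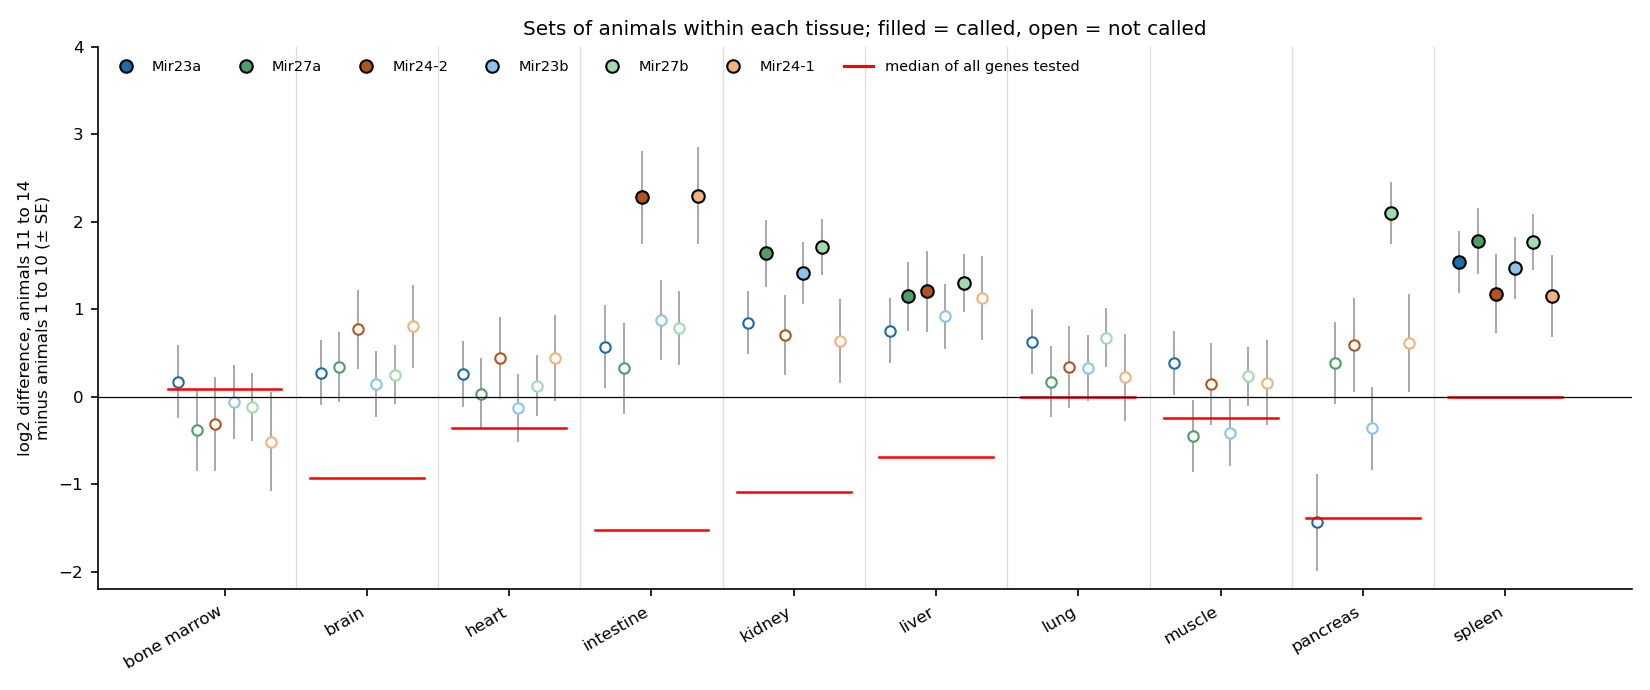
Log2 difference between animals 11 to 14 and animals 1 to 10 for the 6 genes in 10 tissues, with standard errors and the median of all 1029 genes. Most points lie above 0, with intestine Mir24-1 (2.30) and Mir24-2 (2.28) and pancreas Mir27b (2.10) highest.

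Over the 11 tissue means of log2(CPM + 1), which share libraries and differ in depth and composition, Mir24-2 and Mir24-1 had a Pearson r of 0.996. Within the chromosome 8 cluster it was 0.70 for Mir23a and Mir27a, 0.62 for Mir23a and Mir24-2 and 0.45 for Mir27a and Mir24-2. Within the chromosome 13 cluster it was 0.76 for Mir23b and Mir24-1, 0.24 for Mir23b and Mir27b and 0.15 for Mir27b and Mir24-1. Counterparts on different chromosomes had 0.62 for Mir27a and Mir27b and 0.54 for Mir23a and Mir23b. Mir23b had 0.76 with Mir24-2 of the other chromosome as well, and Mir23a had 0.55 with Mir24-1. Of the chromosome 13 genes, Mir27b was thus the least like its neighbours. Mir23a and Mir27b, which share neither, had 0.08.

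The genes most like the summed Mir23a and Mir27a over 11 tissues, of 1262 genes compared, were Mir7213 (r = 0.86), Snord61, a C/D box snoRNA (0.72), Mir452 (0.66), Gm47304 (0.65) and Mir3060 (0.63). Of these only Snord61, at a mean of 267 CPM over the libraries, had a level of more than 10 CPM. Most like the summed Mir23b and Mir27b were Mir184 (0.82), Mir152 (0.79), Mir7076 (0.79), Mir3065 (0.78) and Mir34a (0.75), with means of 38.1, 509.6, 2.003, 0.816 and 341 CPM. All 5 had their highest mean in pancreas, as Mir27b did. They were picked for likeness to a sum that Mir27b leads, so this shared peak follows largely from the choice. In pancreas libraries 3 counts were 3.11 to 293 CPM, above the means of Mir7076 and Mir3065 over the libraries.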

How the data were processed

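Small RNA of 11 tissues was sequenced as single reads from TruSeq small RNA libraries, per the labels' protocols. The unit deposited by the authors was raw counts per gene and library, with no normalisation. The submitters' processing notes name STAR 2.5.1, featureCounts and the build mm10/GRCm38. Of 139 samples, 134 count columns were used. The 3 testis columns were matched to their group by name, and Liver 3, Pancreas 14 and 1 of 2 libraries of each testis were not analysed here. The pool of the 3 testis columns was taken to be N541. In the model of tissue and pool, tissues of pool N467 and of pool N469 are linked only through the libraries of pool N541. Replicates are animals, most of which gave several tissues.

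CPM is computed on the library total. Counts were tested with edgeR 4.0.16 (limma 3.58.1, R 4.3.3) after filterByExpr by tissue (minimum count 10, 1268 of 6114 genes kept) and TMM scaling (factors 0.199 to 5.88), with tissue and pool in the model and Benjamini-Hochberg adjustment over all genes in each contrast. Animal sets were compared in a model of tissue by set with no term for animal. Averages and interactions over tissues thus treat libraries of an animal as independent. The model and the ratio test were tested on simulated data. DESeq2 1.42.0, other scalings, filters, batches and left-out libraries served as alternatives. Ratios within libraries were compared by permutation of libraries, which treats libraries of an animal as independent. The smallest p that 100000 resamples can give is 1e-05. Intervals and floors (3 counts of a total) cover counting error only, as reads carry no molecular identifiers.

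Replicate numbers pair samples, since the same animals gave the tissues. Deviations from tissue means correlated by a mean of 0.046 between libraries of the same animal (583 pairs) and −0.003 otherwise, and by 0.096 within and −0.022 between batches.

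Genes named are the 6 members, Mir3074-1 and Mir3074-2, the 5 genes most like each cluster over tissues, and the abundant members of 3 lists (endothelial and angiogenic, smooth muscle and stromal, blood cell). Members and lists were chosen with earlier results of these data known.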

Additional observations from a re-analysis of the deposited data

Results flagged for a closer look

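Within a tissue and animal set, 8 of 102 groups of 4 to 10 libraries had a library far from the others of its group (Dixon's test at the 95% level), where chance gives about 1 in 20. Muscle 2 was lowest for 4 genes. It had Mir23a at 104 CPM (336 to 594 in the other 9 libraries), Mir27a at 102 (411 to 1015), Mir23b at 209 (610 to 839) and Mir27b at 1512 (5584 to 9094). In that library Mir10b alone took 604919 CPM, against at most 315701 in another muscle library, and the striated muscle markers summed to 68866 CPM, against 116589 to 348624. The part of Mir10b in the low levels was not tested. Muscle 13 was lowest for Mir27a at 112 CPM, against 342 to 430 in the other 3 libraries of animals 11 to 14.

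For Mir23a, brain 13 stood at 390 CPM (919 to 1086 in the other 3), lung 14 at 1125 (1418 to 1443 in the other 3) and lung 9 at 551 (949 to 1584 in the other 8). In lung 9, 51.7% of counts were tRNA.

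The difference between animals 11 to 14 and animals 1 to 10 depended on tissue in an interaction test (edgeR) for Mir23a (adjusted p = 0.0219), Mir27a (0.00219), Mir23b (0.00455) and Mir27b (0.000105). Of all genes, 53.4% passed that test. In pancreas the uncalled Mir24-2 difference of 0.60 became −0.80 without the library labelled Pancreas 11.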

How the results depend on the processing

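Of 374 values of called pairs of gene and tissue under alternatives, 324 kept their call and 50 lost it, and for the animal sets 107 kept it and 57 lost it, none with a change of direction. The 12 higher tissue calls became 7 with DESeq2 size factors and 7 with the DESeq2 Wald test, 16 with miRNA genes alone, and 14 to 15 when a testis library was left out. The 10 lower calls became 7 with DESeq2 size factors and with the DESeq2 Wald test, 16 with miRNA genes alone and 11 to 15 when a testis library was left out. The single specific call (Mir27b in pancreas) became 0 with miRNA genes alone, with no filter, with no pool term, without libraries under 100000 counts, in animals 1 to 10 alone and when any testis library was left out (0 to 0). The 15 animal set calls became 24 with unscaled totals, 6 with miRNA genes alone, 8 with no filter and 10 to 12 when an animal was left out. Pancreas could not be compared between sets without libraries under 100000 counts.

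With animals as a replicate block, tissue calls were 13 higher and 11 lower with 1 specific, and shifted ratios were 9 for Mir23b to Mir23a, 8 for Mir27b to Mir27a (5 without the block), 6 for Mir24-1 to Mir24-2 (2 without), 4 for Mir27 to Mir23 and 6 for Mir24 to Mir23. Animal sets cannot be blocked by animal. In pool N541 alone these ratios were shifted in 2, 2, 0, 1 and 2 tissues, and the Mir24 to Mir23 difference in intestine turned from −0.76 to 0.77 (adjusted exact permutation p = 0.502, where −0.76 had 0.0277). Mir24-1 to Mir24-2 was shifted in 6 tissues with at least 100 counts and in 6 without libraries under 100000 counts. The causes were not tested. Depth limits the pancreas values most, where Mir23a had 0 to 2 counts in pancreas 13 and the library labelled Pancreas 11.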
